A study of Homo sapiens with 6 samples.

Results

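The genes that encode voltage-gated ion channels were followed in differentiating neuroblastoma cells from which the long noncoding RNA CyCoNP had been depleted. Members were the protein-coding genes whose symbol begins with KCN (potassium), begins with CACN (calcium), or reads SCN followed by a number and A or B (sodium). This gave 136 of the 60676 genes in the tables, of which 96 belonged to the potassium class, 14 to the sodium class and 26 to the calcium class. The libraries were made from SK-N-BE, a neuroblastoma line of human origin whose cells take on neuronal traits under retinoic acid. All 6 libraries came from this line after 1.5 days in medium with 10 μM retinoic acid, 3 from cells given a scrambled small interfering RNA (si-SCR) and 3 from cells given an siRNA pool against CyCoNP (si-CyCoNP). The comparison addresses how the transcriptome of such cells responds to the loss of CyCoNP. The model is 1 cell line and 1 siRNA pool, so that an effect of the pool on other transcripts and an effect of CyCoNP loss cannot be told apart.

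Voltage-gated channels are membrane proteins that open when the membrane potential changes. Sodium channels carry the upstroke of the action potential, potassium channels repolarise the membrane and set its resting level, and calcium channels couple electrical activity to transmitter release and gene expression. A pore-forming subunit conducts the ions, and auxiliary subunits (β, α2δ, γ and others) regulate how much channel reaches the membrane and how it gates. The symbol rule is wider than its name, since it also takes inward rectifiers, two-pore leak channels, channels opened by calcium or sodium, and auxiliary subunits, many of which are not opened by voltage themselves. The members were therefore grouped into 11 families from general knowledge.

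The tables held 3762009 to 4799407 counted fragments per library, with 19519 to 20520 genes detected. LINC02381, the gene of CyCoNP, had 274, 208 and 315 counts in si-SCR, against 20, 30 and 12 in si-CyCoNP, a log2 fold change of -3.78 (SE 0.19, adjusted p = 6.84e-14), so the libraries went with their labels. Of 9 adrenergic neuroblastoma markers, all were tested, and in si-CyCoNP 6 fell and 1 (MYCN, log2 fold change 0.84) rose. Their summed level was 2084 to 2237 FPKM in si-SCR, against 1890 to 2037 FPKM in si-CyCoNP. Within this sum MYCN alone had a mean of 428 FPKM in si-SCR, against 806 FPKM in si-CyCoNP. FPKM is a level per length, the number of fragments scaled to the length of the gene and to the library total. Of 10 mesenchymal markers 7 were tested, 3 rose (FN1, FOSL1 and COL1A1) and 3 fell (VIM, FOSL2 and SNAI2). The 3 that rose had means of 0.697, 0.152 and 0.450 FPKM in si-SCR. They thus passed the filter of 1 FPKM only through si-CyCoNP, the group where they are high. Below the filter, NOTCH2 had 29, 13 and 15 counts in si-SCR, against 5, 4 and 8 in si-CyCoNP. YAP1, also below it, had 1, 0 and 4 against 6, 3 and 5. The sum was 74.6 to 87.1 FPKM in si-SCR, against 60.5 to 65.9 FPKM in si-CyCoNP, with PRRX1 at 0. VIM held most of it, with a mean of 56.3 FPKM in si-SCR, against 43.9 FPKM in si-CyCoNP. Of 7 Schwann and glial markers only 1 passed the filter and rose, the sum was 1.52 to 3.37 FPKM in si-SCR, against 8.78 to 14.7 FPKM in si-CyCoNP, and the defining genes SOX10 and FABP7 were at 0 in every library. These markers moved between the same groups as the channel genes, and their part in the channel results was not tested. In bulk RNA, fewer cells of a type and less RNA per cell cannot be told apart.

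Most channel genes were low or not detected. Of the 136 members, 43 had no count in any library, 30 had at most 3 counts in every library, and 33 lay above that floor but had a mean under 1 FPKM in both groups. The remaining 30 were tested, 18 of the potassium, 5 of the sodium and 7 of the calcium class. The highest mean levels in si-SCR were those of KCNJ8 (77.0 ± 7.08 FPKM, SD, n = 3), KCNH2 (35.5 ± 2.84 FPKM) and CACNA2D1 (15.9 ± 2.39 FPKM). Of the pore-forming calcium channel genes only CACNA1H passed the filter.

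In si-CyCoNP, 15 of the 30 tested members (50%) were lower at an adjusted p under 0.05 and 4 (13.3%) were higher, whereas over all 13966 genes tested 14.2% were lower and 14.2% higher. Among protein-coding genes alone these shares were 18.1% and 17.3%. The adjusted p is that of edgeR's quasi-likelihood test throughout. All 5 tested sodium channel genes fell, as did 4 of 7 calcium and 6 of 18 potassium channel genes, and all 4 genes that rose were potassium channel genes. With limma on log2(FPKM + 1), 9 members were lower and 0 higher at the same threshold (12 and 3 at an unadjusted p under 0.05), against 8.01% and 12.6% of all genes. Most shifts were moderate. The median log2 fold change was -0.33 over the tested members (-0.62 sodium, -0.78 calcium, -0.17 potassium) and 0.01 over all genes tested. Genes were called where, in addition, the change exceeded 2-fold, that is a log2 fold change beyond 1. This held for 3 members lower (CACNA2D2, CACNA2D3 and CACNG4) and 3 higher (KCNAB2, KCNG4 and KCNJ12), 10% in each direction, against 2.98% lower and 2.28% higher over all genes tested. Groups did not overlap for 14 members lower and 6 higher, where 16.1% and 24.2% of all genes did so.

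The filter itself favoured members that were high in 1 group. Among the tested members, 5 reached 1 FPKM in si-CyCoNP alone, KCNJ12, KCNAB2, KCNG1 and KCNG4 among them, and none reached it in si-SCR alone, so all 3 members called higher were tested through the group where they are high. Of the 25 members at 1 FPKM or more in both groups, 15 fell and 1 (KCNC1) rose, with a median log2 fold change of -0.44. This cut took out only members that were higher in si-CyCoNP, so it lowers the median by itself. The shares of all genes under the same cut were not computed. The plot of log2 fold changes by class shows the calcium channel subunits at the lower end and these low-level potassium channel genes at the upper end.

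**Figure D1:**
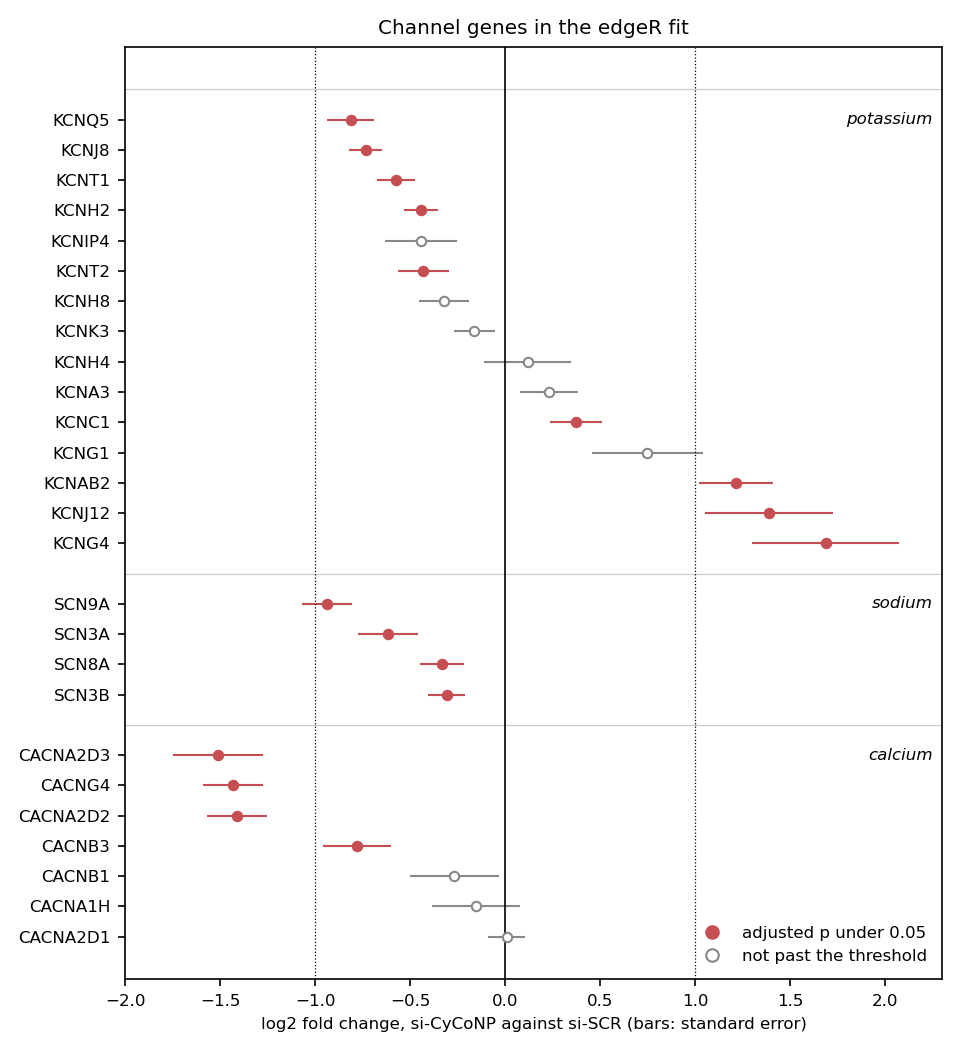
Log2 fold change of si-CyCoNP against si-SCR for 26 of the tested channel genes, grouped by class, with the standard error as bars; filled points passed the adjusted p threshold of 0.05 and dotted lines mark a log2 fold change of -1 and 1. The 4 sodium channel genes drawn lie below 0, and the points run from -1.51 (CACNA2D3) to 1.69 (KCNG4).

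**Figure D2:**
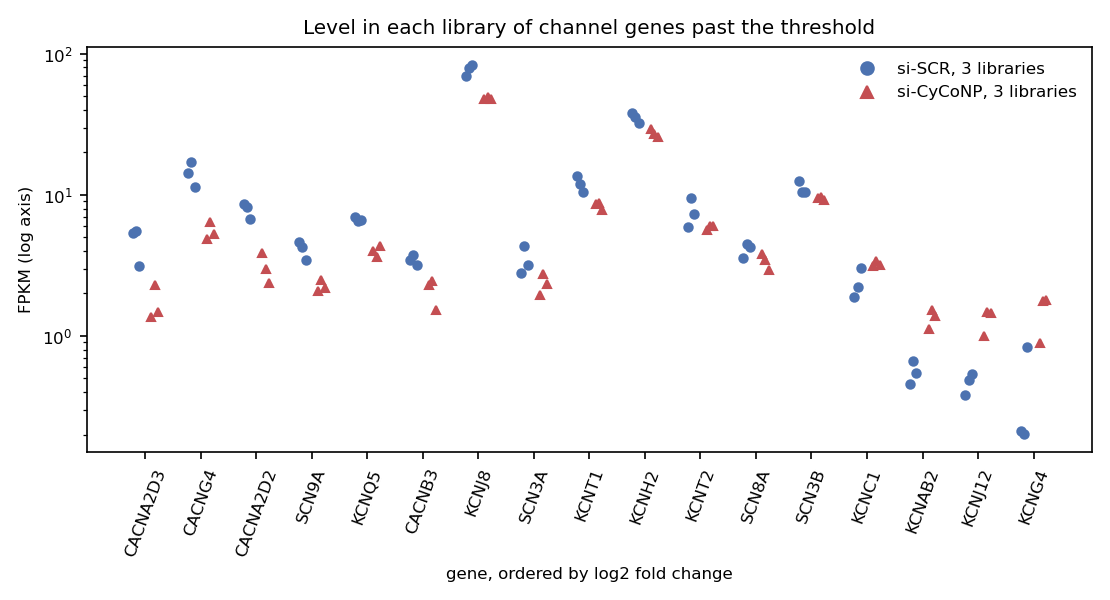
FPKM on a log axis in each library for 17 of the channel genes past the threshold, ordered by log2 fold change; circles are the 3 si-SCR libraries and triangles the 3 si-CyCoNP libraries. KCNJ8 is highest in every library, and the genes that rose at the right end, KCNAB2, KCNJ12 and KCNG4, are the lowest in si-SCR.

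Since the study followed the pairing of CyCoNP with the microRNA miR-4492, the 3′ untranslated regions (3′UTRs) of the members were searched for its seed match. The mature sequence from RefSeq (GRCh38, chr11:118910765-118910781, plus strand) is printed first with its seed, bases 2 to 8, in capitals. The 4 fallen members with exactly 1 match of 7 bases follow, with the match in capitals, taken from GENCODE transcripts and checked against GRCh38, all within the 3′UTR exon sequence of the gene named. They lie at chr17:67032798-67032822 on the plus strand (CACNG4), chr6:73197119-73197143 on the plus strand (KCNQ5), chr12:48828012-48828036 on the plus strand (CACNB3) and chr7:150945219-150945243 on the minus strand (KCNH2).
miR-4492: gGGGCUGGgcgcgcgcc
CACNG4: tgctctaggCCAGCCCtgtcaccac
KCNQ5: caatcctccCCAGCCCtccccaaca
CACNB3: accccctgcCCAGCCCcagcttcag
KCNH2: gctcctcccCCAGCCCttgggacca

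The search used the letters CCAGCCC on the transcribed strand of the longest annotated 3′UTR. A match was present in 8 of the 15 members that fell (53.3%) and in 8 of the other 15 tested members (53.3%), compared with 25% of the other genes tested. The share was thus the same in fallen and in other members. Besides the genes printed, KCNT1 and SCN8A were among the fallen members with a match. CACNA2D2, CACNA2D3, KCNJ8, KCNT2, SCN3A, SCN3B and SCN9A were those without. The 3′UTRs of the members were longer and richer in G and C, with a median of 2534.5 bases and 54.5% GC against 1583 bases and 42.3% GC in the other genes, and how far this accounts for the higher share was not tested. With the shorter match CAGCCC, which CACNA2D2 and SCN3B also have, the counts were 10 and 8 of 15. A match of these letters is a description and says nothing of whether miR-4492 binds there.

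Calcium channel genes fell among the auxiliary subunits. CACNG4 encodes a γ family protein that also serves AMPA receptors as an auxiliary subunit. It had 14.4, 17.2 and 11.3 FPKM in the si-SCR libraries, against 4.88, 6.44 and 5.32 FPKM in si-CyCoNP (222, 232 and 193 against 84, 98 and 79 counts). The highest si-CyCoNP library stayed well below the lowest si-SCR library. The log2 fold change was -1.43 (SE 0.16, adjusted p = 6.96e-08), which leaves 37.1% of the si-SCR level.

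The α2δ subunits are extracellular proteins that bring calcium channels to the surface, and CACNA2D1 is among those bound by gabapentin drugs. CACNA2D2 had 8.62, 8.20 and 6.75 FPKM in si-SCR, against 3.86, 2.98 and 2.37 FPKM in si-CyCoNP, a log2 fold change of -1.41 (SE 0.16, adjusted p = 7.66e-08). CACNA2D3 had 5.33, 5.58 and 3.15 FPKM in si-SCR, against 1.37, 2.29 and 1.48 FPKM in si-CyCoNP, a log2 fold change of -1.51 (SE 0.24, adjusted p = 1.70e-05). In neither gene did the groups overlap. CACNA2D1, the most abundant of the family, had 18.6, 15.1 and 14.1 FPKM in si-SCR, against 16.7, 16.4 and 17.3 FPKM in si-CyCoNP, with overlapping groups and a log2 fold change of 0.01 (SE 0.10, adjusted p = 0.967). CACNA2D4 had no count. The share of the summed α2δ level taken by CACNA2D1 was thus 56.1% ± 3.37 (SD, n = 3) in si-SCR, against 77.9% ± 3.39 in si-CyCoNP, while CACNA2D2 went from 27.7% ± 1.06 to 14.2% ± 3.22 and CACNA2D3 from 16.3% ± 3.10 to 7.95% ± 2.31. The summed level of the family was 28.5 ± 4.32 FPKM and 21.6 ± 0.405 FPKM. These shares are a description, and the difference in fold change between the 3 genes was not tested.

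Among the cytoplasmic β subunits, which chaperone the pore, CACNB3 had 3.19 to 3.72 FPKM in si-SCR, against 1.52 to 2.47 FPKM in si-CyCoNP without overlap. Its log2 fold change was -0.78 (SE 0.18, adjusted p = 0.00149), and on the log2(FPKM + 1) scale of limma it missed the threshold (adjusted p = 0.0504). CACNB1 had 1.20 to 1.71 FPKM in si-SCR, against 0.986 to 1.50 FPKM in si-CyCoNP, with a log2 fold change of -0.27 (adjusted p = 0.433). Values of the low-voltage-activated pore gene CACNA1H overlapped, with 65, 55 and 46 counts in si-SCR, against 71, 57 and 35 in si-CyCoNP (log2 fold change -0.15, adjusted p = 0.672). CACNA1B, which encodes the presynaptic N-type pore, stayed under 1 FPKM with 36 to 42 counts in si-SCR, against 20 to 39 in si-CyCoNP. The summed level of all calcium channel genes was 51.2 ± 6.96 FPKM in si-SCR, against 34.6 ± 2.18 FPKM in si-CyCoNP.

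**Figure D3:**
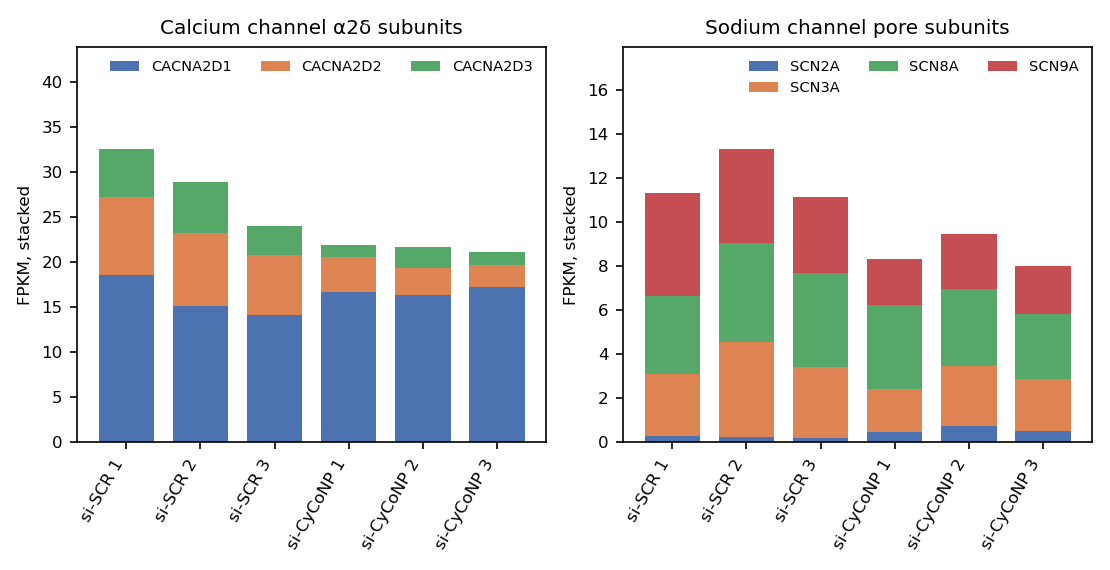
Stacked FPKM of the α2δ subunit genes (left) and of 4 sodium channel pore genes (right) in each library, with axes from 0 and 1 bar per library; the bars hold only the genes in the legend and are not the family sums. CACNA2D1 takes a larger part of the α2δ bars in the 3 si-CyCoNP libraries, and the sodium channel bars are lower there.

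Sodium channel genes fell to different extents. SCN9A, whose channel amplifies small depolarisations in sensory and sympathetic neurons, had 4.67, 4.25 and 3.45 FPKM in si-SCR, against 2.09, 2.48 and 2.20 FPKM in si-CyCoNP. Every si-CyCoNP library lay below every si-SCR library, and the log2 fold change was -0.94 (SE 0.13, adjusted p = 3.84e-06). SCN3A, a channel of the developing nervous system, had 2.79, 4.31 and 3.21 FPKM in si-SCR, against 1.96, 2.74 and 2.33 FPKM in si-CyCoNP, again without overlap (log2 fold change -0.62, SE 0.16, adjusted p = 0.00358). Without si-SCR replicate 2, the highest library, SCN3A missed the threshold (log2 fold change -0.42, adjusted p = 0.0529), as it did with limma on log2(FPKM + 1).

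For SCN8A, which encodes a major channel of the axon initial segment, the groups overlapped, with 3.56, 4.51 and 4.27 FPKM in si-SCR, against 3.83, 3.47 and 2.94 FPKM in si-CyCoNP. Its log2 fold change of -0.33 (SE 0.12, adjusted p = 0.0339) lost the threshold when si-SCR replicate 2 (-0.26, adjusted p = 0.171), si-CyCoNP replicate 2 (-0.34, adjusted p = 0.0802) or si-CyCoNP replicate 3 (-0.24, adjusted p = 0.182) was left out, and with DESeq2. It was also lost with library totals alone and with limma on log2(FPKM + 1). The β subunit SCN3B had 12.6, 10.4 and 10.4 FPKM in si-SCR, against 9.54, 9.69 and 9.16 FPKM in si-CyCoNP. Its groups did not overlap, and its log2 fold change of -0.31 (SE 0.10, adjusted p = 0.0193) was -0.19 without si-SCR replicate 1 (adjusted p = 0.178) and -0.29 without si-CyCoNP replicate 3 (adjusted p = 0.0623). SCN3B missed the threshold with library totals alone and with limma on log2(FPKM + 1) as well. SCN3B took 99.2% of the summed β subunit level in both groups. The summed level of the sodium channel pore genes was 14.7 ± 0.940 FPKM in si-SCR, against 10.1 ± 1.01 FPKM in si-CyCoNP.

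SCN3A and SCN9A lie with SCN2A, SCN1A and SCN7A in a cluster of sodium channel genes on chromosome 2, from 165087526 to 166611482 in GRCh38, a stretch of 1524 kb in which only SCN2A among these 5 is on the plus strand. SCN2A, the channel gene of early axons in cortical neurons, was below the filter and is described here because its values had been seen. It had 31, 20 and 23 counts in si-SCR, against 52, 76 and 53 in si-CyCoNP, so every si-CyCoNP library was above every si-SCR library. In the fit without the filter, where 7.69% of 26702 genes were higher and 7.41% lower, its log2 fold change was 1.19 (SE 0.25, adjusted p = 2.87e-05). For each 100 counts of SCN9A there were 11.1, 8.97 and 10.0 counts of SCN2A in si-SCR, against 37.1, 51.7 and 41.7 in si-CyCoNP. SCN1A had 1 count in all and SCN7A had 4, all of these in si-SCR. SCN2A shares exon sequence on its own strand with ENSG00000236283, which had 2 counts in all, and fragments in shared exons are dropped by the counting. All of these levels are low, and the ratio of SCN2A to SCN9A, chosen after both values had been seen, is a description.

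**Figure D4:**
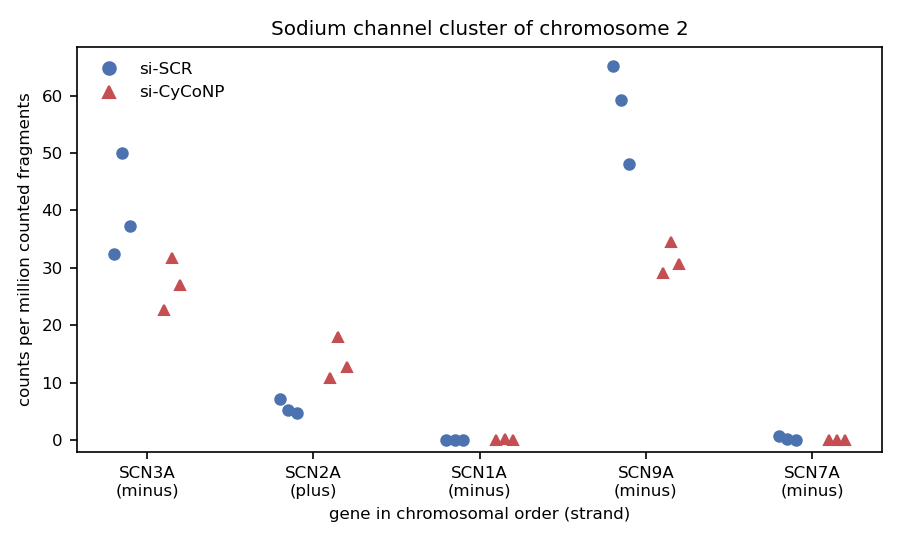
Counts scaled to the library total (CPM) of the 5 sodium channel genes of the chromosome 2 cluster in chromosomal order, with the strand below each symbol; circles are si-SCR and triangles si-CyCoNP libraries. SCN3A and SCN9A are lower and SCN2A is higher in si-CyCoNP, and SCN1A and SCN7A lie near 0.

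The potassium class moved in both directions. KCNJ8, the most abundant channel gene, encodes the pore of an ATP-sensitive inward rectifier that couples metabolism to membrane potential. It had 69.1, 79.3 and 82.7 FPKM in si-SCR, against 48.0, 49.6 and 48.0 FPKM in si-CyCoNP (745, 749 and 993 against 578, 529 and 500 counts). The groups lay far apart relative to their spread, with a log2 fold change of -0.73 (SE 0.09, adjusted p = 2.19e-07). KCNJ8 took 98.0% ± 0.514 of the summed inward rectifier level in si-SCR, against 94.7% ± 1.23 in si-CyCoNP, and the family sum was 78.6 ± 7.59 and 51.2 ± 1.45 FPKM. ABCC9, which encodes a sulfonylurea receptor that assembles with this pore, had 1.68, 1.85 and 2.38 FPKM in si-SCR, against 2.44, 3.40 and 3.43 FPKM in si-CyCoNP, and rose (log2 fold change 0.57, SE 0.16, adjusted p = 0.00692). With limma on log2(FPKM + 1) ABCC9 missed the threshold.

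KCNQ5 encodes a pore of the M current, a slow potassium current that restrains repetitive firing. It had 6.95, 6.53 and 6.63 FPKM in si-SCR, against 3.99, 3.64 and 4.37 FPKM in si-CyCoNP (log2 fold change -0.81, SE 0.12, adjusted p = 9.95e-06). Every si-CyCoNP library lay below every si-SCR library, and KCNQ3, which encodes another pore of this current, had no count in any library. KCNH2, the hERG channel gene whose product repolarises slowly firing cells, had 38.1, 35.8 and 32.5 FPKM in si-SCR, against 29.3, 26.9 and 25.8 FPKM in si-CyCoNP. Here too the groups did not overlap (log2 fold change -0.44, SE 0.09, adjusted p = 3.92e-04).

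KCNT1 and KCNT2 encode potassium channels opened by intracellular sodium. KCNT1 had 13.5, 12.0 and 10.5 FPKM in si-SCR, against 8.67, 8.77 and 7.86 FPKM in si-CyCoNP, without overlap (log2 fold change -0.57, SE 0.10, adjusted p = 6.67e-05). KCNT2 had 5.92, 9.54 and 7.35 FPKM in si-SCR, against 5.68, 6.02 and 5.97 FPKM in si-CyCoNP, with overlap. Its log2 fold change of -0.43 (SE 0.14, adjusted p = 0.0178) was -0.24 without si-SCR replicate 2 (adjusted p = 0.235) and -0.41 without si-CyCoNP replicate 1 (adjusted p = 0.0542). With limma on log2(FPKM + 1) KCNT2 missed the threshold. KCNIP4, an auxiliary subunit of A-type channels, had 5.57 to 8.46 FPKM in si-SCR, against 4.05 to 7.18 FPKM in si-CyCoNP and missed the threshold (log2 fold change -0.44, adjusted p = 0.0865). It passed without si-CyCoNP replicate 1 (-0.75, adjusted p = 0.00408) and without si-SCR replicate 3 (-0.60, adjusted p = 0.00185), and in the fit without the filter (adjusted p = 0.0414). KCNK3, an acid-sensitive leak channel gene that held 94.3% ± 2.76 of the two-pore family in si-SCR, had 10.6 to 13.2 FPKM in si-SCR, against 10.7 to 11.5 FPKM in si-CyCoNP, with a log2 fold change of -0.16 (SE 0.11, adjusted p = 0.293).

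Of the 4 potassium channel genes that rose, 3 were scarce in si-SCR. KCNAB2, a cytoplasmic β subunit of Shaker-type channels, had 34, 43 and 45 counts in si-SCR, against 93, 112 and 100 in si-CyCoNP, a log2 fold change of 1.22 (SE 0.19, adjusted p = 2.22e-05). KCNG4, a modulatory subunit that forms channels only together with other pores, had 6, 5 and 26 counts in si-SCR, against 28, 49 and 49 in si-CyCoNP. The nearest libraries of KCNG4, si-SCR replicate 3 and si-CyCoNP replicate 1, were close to each other, and the log2 fold change of 1.69 (SE 0.39, adjusted p = 0.00144) was 2.70 without si-SCR replicate 3. The inward rectifier gene KCNJ12 had 9, 10 and 14 counts in si-SCR, against 26, 34 and 33 in si-CyCoNP (log2 fold change 1.39, SE 0.34, adjusted p = 0.00244). Because its near-identical copy KCNJ18 was at 0 in every library and fragments that map to both are dropped, the level of KCNJ12 is uncertain. None of the 3 passed the threshold of limma on the log2(FPKM + 1) scale.

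KCNC1, a pore gene of fast-spiking neurons, had 1.89, 2.21 and 3.05 FPKM in si-SCR, against 3.15, 3.41 and 3.20 FPKM in si-CyCoNP. The groups came near each other, and the log2 fold change of 0.38 (SE 0.14, adjusted p = 0.0419) missed the threshold when any 1 library other than si-SCR replicate 3 was left out, with 0.24 when replicate 1 of si-SCR was omitted, 0.33 when replicate 2 was, and 0.35 to 0.40 when 1 of the si-CyCoNP libraries was. Without si-SCR replicate 3 it was 0.58. The threshold was also missed with DESeq2 and with limma on log2(FPKM + 1). KCNG1, another modulatory subunit, had 0.731 to 1.03 FPKM in si-SCR, against 1.04 to 1.87 FPKM in si-CyCoNP and did not pass (log2 fold change 0.75, SE 0.29, adjusted p = 0.0569), although it did without si-CyCoNP replicate 1 (0.98, adjusted p = 0.0172) and with library totals alone (adjusted p = 0.0377). The lymphocyte channel gene KCNA3 was at 9.50 to 13.4 FPKM in si-SCR, against 12.2 to 16.5 FPKM in si-CyCoNP (log2 fold change 0.23, adjusted p = 0.283). The summed level of the potassium class was 199.7 ± 6.11 FPKM in si-SCR, against 155.6 ± 5.59 FPKM in si-CyCoNP.

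Among the 33 members between the floor and the filter, 6 were lower and 1 was higher (SCN2A) at an adjusted p under 0.05 in the fit without the filter. They were looked at after their values had been seen. KCNC4, of the same family of rapidly gating pores as KCNC1, had 45, 52 and 41 counts in si-SCR, against 19, 25 and 15 in si-CyCoNP (log2 fold change -1.33, adjusted p = 1.85e-05). KCNAB1, a β subunit related to KCNAB2, had 25, 30 and 28 counts in si-SCR, against 11, 16 and 10 in si-CyCoNP (log2 fold change -1.26, adjusted p = 0.00273). In both the groups did not overlap, and the sign was opposite to that of the relatives KCNC1 and KCNAB2, a difference that was not tested. The other 4 were KCNH3 (log2 fold change -2.10), KCNH1 (-1.59), KCNN1 (-1.36) and KCND1 (-1.04), which had 10 to 31 counts per library in si-SCR, against 2 to 15 in si-CyCoNP. KCNMA1, the gene of the large-conductance calcium-activated channel, had 78, 75 and 72 counts in si-SCR, against 127, 101 and 105 in si-CyCoNP, without overlap, and lay beside the threshold (log2 fold change 0.45, adjusted p = 0.0531). With the default filter of edgeR, KCNMA1 passed the threshold. Over the 93 members with a count, 22 were lower and 5 higher in the fit without the filter, where 7.41% of all genes were lower and 7.69% higher.

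The genes that assemble with channels, or form related channels outside the symbol rule, were mixed. Of 33 such genes 18 were tested, of which 5 fell (27.8%) and 3 rose (16.7%), where 14.2% of all genes did so in each direction, with a median log2 fold change of -0.10. CNTNAP2, which clusters Shaker-type channels along the axon, had 2.22, 2.50 and 2.08 FPKM in si-SCR, against 0.560, 0.747 and 0.501 FPKM in si-CyCoNP (log2 fold change -1.97, SE 0.17, adjusted p = 1.33e-09). FGF14, an intracellular protein that binds sodium channels at the axon initial segment, had 2.50, 2.24 and 1.67 FPKM in si-SCR, against 0.924, 0.872 and 0.649 FPKM in si-CyCoNP (log2 fold change -1.45, SE 0.19, adjusted p = 1.23e-06). These were the only genes of the list called, and in both the groups lay apart. Both had a mean under 1 FPKM in si-CyCoNP and so passed the filter only through si-SCR, the group where they are high. CNTNAP1, a paranodal adhesion protein gene, fell by 0.80 on the log2 scale (adjusted p = 2.86e-07), STAC, a calcium channel adaptor gene, by 0.81 (adjusted p = 7.23e-06) and DPP6, an auxiliary subunit gene of A-type channels, by 0.58 (adjusted p = 3.37e-04). With limma on log2(FPKM + 1) DPP6 missed the threshold. Among the genes that rose were NALF2, an accessory gene of the sodium leak channel (log2 fold change 0.86, adjusted p = 0.00210), and ABCC9.

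Neuronal channel genes are often long, and the tested members spanned a median of 82.9 kb of genome against 33.6 kb for the other protein-coding genes tested. Among those other genes, 30.1% of the 369 that span over 300 kb were lower at an adjusted p under 0.05, with a median log2 fold change of -0.13, compared with 14.8% of the 2943 that span 10 to 30 kb, whose median was 0.03. The share of lower genes was 17.5% between 30 and 100 kb and 24.3% between 100 and 300 kb. Among the channel genes, 3 of 9 fell between 10 and 30 kb, 4 of 7 between 30 and 100 kb, 5 of 8 between 100 and 300 kb and 3 of 6 over 300 kb. Their median log2 fold change was -0.19, -0.44, -0.47 and -0.44 in these classes, in the same order. The part of gene span in the channel results was not tested.

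**Figure D5:**
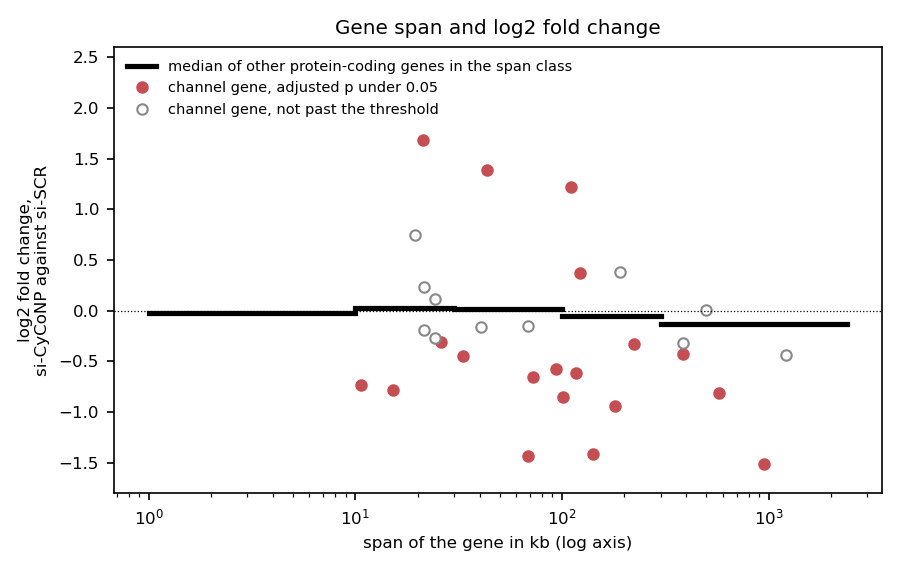
Log2 fold change of the 30 tested channel genes against the genomic span of the gene in kb on a log axis; filled points passed the adjusted p threshold, and black lines give the median of the other protein-coding genes in each span class (under 10, 10 to 30, 30 to 100, 100 to 300 and over 300 kb). The lines run from 0.03 to -0.13. Fallen channel genes were selected as lower, so their place below the lines was fixed in advance.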

How the data were processed

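The titles gave the group and replicate number of each of the 6 libraries, none of which was left out. Total RNA was depleted of ribosomal RNA and made into stranded libraries by the authors. Reads were trimmed with Trimmomatic 0.39 and cutadapt 3.2, cleared of ribosomal sequence with Bowtie2 2.4.2 and aligned with STAR 2.7.7a to GRCh38 (versions from the submitters' processing notes). The deposited counts are raw counts per Ensembl gene made by the authors with STAR, in which only uniquely mapping fragments count, so near-identical copies are undercounted. The deposited FPKM values were scaled by the authors to gene length and library total.

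Genes with a mean of at least 1 FPKM in either group (13966) were normalised with TMM and tested in R 4.3.3 with edgeR 4.0.16 (quasi-likelihood F test), with Benjamini-Hochberg adjustment over all of them. The count test was tested on simulated data first. The floor was 3 counts per library. Symbols, spans and 3′UTRs are those of GENCODE release 44. Exons of 15 of the 30 tested members overlap a gene on the other strand. Of 783 genes lying inside exons of an opposite-strand gene 28.5% had a count, against 13.2% of 1419 inside same-strand exons (Fisher's exact test, two-sided, p = 6.57e-18). No tested member shares exons with another gene on its own strand.

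The members and lists were chosen with earlier results of these data known. Genes named were LINC02381, every member called, the 20 members with the smallest p, the most abundant member of each of 11 families and the 5 channel partner genes with the smallest p; others were added after their values were seen, as were the 2 further partner genes named. Some genes that the rule takes are not reported here, and they enter only the counts, medians and sums. Nothing in the labels says that replicates came from separate cultures, so p-values measure the spread between these libraries, which may be technical. Counts are not corrected for PCR duplicates. Alternatives were DESeq2 1.42.0, other scalings and filters, limma 3.58.1 on log2(FPKM + 1) and log2(FPKM + 0.1), the replicate number as a block, glmTreat, and leaving out each library. A planned search of member proteins for sequence signatures was not run.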

Additional observations from a re-analysis of the deposited data

How the results depend on the processing

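Of 435 values of single genes recomputed under alternatives, 385 kept their direction and side of the threshold, 39 lost the threshold (22 of them on the log2 FPKM scales), 7 gained it and 4 changed sign. The sign changes concern genes far from the threshold, CACNA2D1 (-0.10 to 0.15 when each library was left out in turn, below 0 in 3 of these fits) and CACNA1H (-0.36 to 0.040, above 0 only without si-CyCoNP replicate 3). With limma on log2(FPKM + 1) or log2(FPKM + 0.1), 9 members were lower and 0 higher (12 and 3 at an unadjusted p under 0.05), so that 0 were called higher, and 1 partner gene was higher. On the first of these scales 207 genes were called higher and 180 lower over all genes, compared with 319 and 416. The default filter of edgeR gave 7 members called lower and no filter 9, and with glmTreat 0 were called in either direction (3 in each at an unadjusted p under 0.05), where edgeR's main test called 3 in each. Leaving out 1 library gave 3 to 5 members called lower, 5 without si-CyCoNP replicate 2, si-SCR replicate 1 or si-SCR replicate 3. Library totals alone shifted the median of all genes to 0.07 and left 13 members lower and 5 higher, and DESeq2 gave 14 lower and 3 higher. The cause of these differences was not tested. Same-numbered libraries deviated together only weakly (correlations 0.0907, 0.0727 and 0.108), although each correlated best with its own number, a hint from the data and not the design. With the replicate number as a block 17 members were lower and 5 higher, with KCNIP4 (-0.46, adjusted p = 0.00721), KCNH8 and KCNG1 (adjusted p = 0.0293) passing in addition. How far depth limits the 106 members below the filter was not tested, and 43 of them had no count.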

Other observations

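A few channel genes at or near the floor had more counts in 1 group, and they are given as values with no test. They were picked after their values had been seen, from the 106 members below the filter, 43 of which had no count. CACNA1G, a low-voltage-activated calcium channel gene related to CACNA1H, had no count in si-SCR and 2, 5 and 2 counts in si-CyCoNP. KCNF1, a modulatory potassium channel subunit gene, had 0, 0 and 1 counts in si-SCR and 3 in each si-CyCoNP library, and KCNE1, an auxiliary subunit gene, had 1, 1 and 0 against 2, 5 and 4. SCN4A, the skeletal muscle sodium channel gene, had 1, 10 and 4 counts in si-SCR and 1 in each si-CyCoNP library.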
